A study of Bos taurus with 9 samples.

Results

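Cholesterol synthesis and sterol sensing were followed through 7 genes: HMGCS1, IDI1, FDPS, FDFT1, SQLE, INSIG1 and AACS. Members were all probe sets of a bovine expression array whose annotation gives exactly 1 of these symbols. This rule used no measured value and found 10 of the 24016 probe sets tested, for 6 of the 7 genes. The genes themselves, and the lists used below, were chosen with earlier results of these data known. Their counts set beside those of all probe sets are therefore no test. IDI1, the isomerase of the isoprenoid units, had no such probe set and was not analysed here. HMGCS1 (gene ID 407767) and AACS (505842) had 2 probe sets each, FDFT1 (281767) had 3, and SQLE (526535), FDPS (281156) and INSIG1 (511899) had 1. Probe sets of a gene are numbered here by brightness over the 9 arrays, starting from the brightest.

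RNA came from Yan yellow cattle bulls, 24 months of age and reared alike, with no treatment or genetic change named. Each of 3 tissues had 3 arrays: the longissimus dorsi muscle of the back, fat of the abdomen and fat under the skin, labelled abdominal and subcutaneous adipose tissue. The labels count 9 bulls without saying which samples share an animal, so a p-value here reflects the spread among the samples alone, which may be technical in part. The 3 replicates of a tissue are numbered in accession order, and the main fit does not pair them. Replicates 1 and 2 have the same opening title number in all 3 tissues, and replicate 3 in muscle and subcutaneous fat. That number may mark an animal, which the labels do not say. A fit with it as a block is given at the end.

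Cells build cholesterol from acetyl-CoA through mevalonate, farnesyl pyrophosphate, squalene and a series of sterol intermediates. When membrane sterol is low, the escort protein SCAP carries SREBP transcription factors out of the endoplasmic reticulum, and their cleaved forms switch on the genes of the pathway. INSIG1 holds SCAP back when sterol is plentiful. Adipocytes keep a large store of free cholesterol, part of it at the surface of their lipid droplets.

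Values are log2 of the deposited probe set intensities, and 1 unit is a doubling. The array medians lay between 5.75 and 5.92, and 46.1% to 49.0% of an array's probe sets were above 6. A tissue mean under 6 is called near background here, and a difference that involves such a mean has no exact size. A difference is called at an adjusted p under 0.05 over all probe sets tested, and its error is the moderated standard error (SE) of the limma fit. Levels of different probe sets are not compared with each other.

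The labelled tissues matched their defining markers. By the brightest probe set of each gene, all 7 measured of 8 adipocyte markers were higher in fat than in muscle, with ADIPOQ 3.59 and PPARG 4.24 higher. Of 6 measured muscle markers 4 were lower in fat, such as TNNT3 (-7.72), while the brightest probe sets of CKM and MYH7 went against their label and were 1.46 and 0.60 higher. The ratio of 3' to 5' intensity of control transcripts, which rises when RNA is less intact, also followed tissue and was higher in fat. For the actin control it was 0.963 to 1.04 in muscle and 2.24 to 8.17 in fat. For the glyceraldehyde-3-phosphate dehydrogenase control it was 0.937 to 1.01 and 1.21 to 1.74. For the EF1A control it was 0.278 to 0.354 and 0.473 to 0.650. Its part in the differences below was not tested.

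The first question was how fat differed from muscle. HMGCS1, SQLE and AACS were higher in both fat depots than in muscle, by about 1.5 to 1.8 log2 units for the mean of the depots. FDFT1 and FDPS, which act between them in the pathway, were lower in fat. INSIG1 did not pass the test. Of the 10 member probe sets, 4 were called higher in fat (2 of HMGCS1, 1 of SQLE, 1 of AACS) and 3 lower (2 of FDFT1, 1 of FDPS). Over all probe sets, 52.6% were called for fat against muscle, 26.2% higher and 26.4% lower. The median difference was 0.31 over the 10 member probe sets and -0.06 over all probe sets. The arrays of fat and muscle did not overlap at 6 of the 10 member probe sets, against 44.8% of all probe sets.

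**Figure D1:**
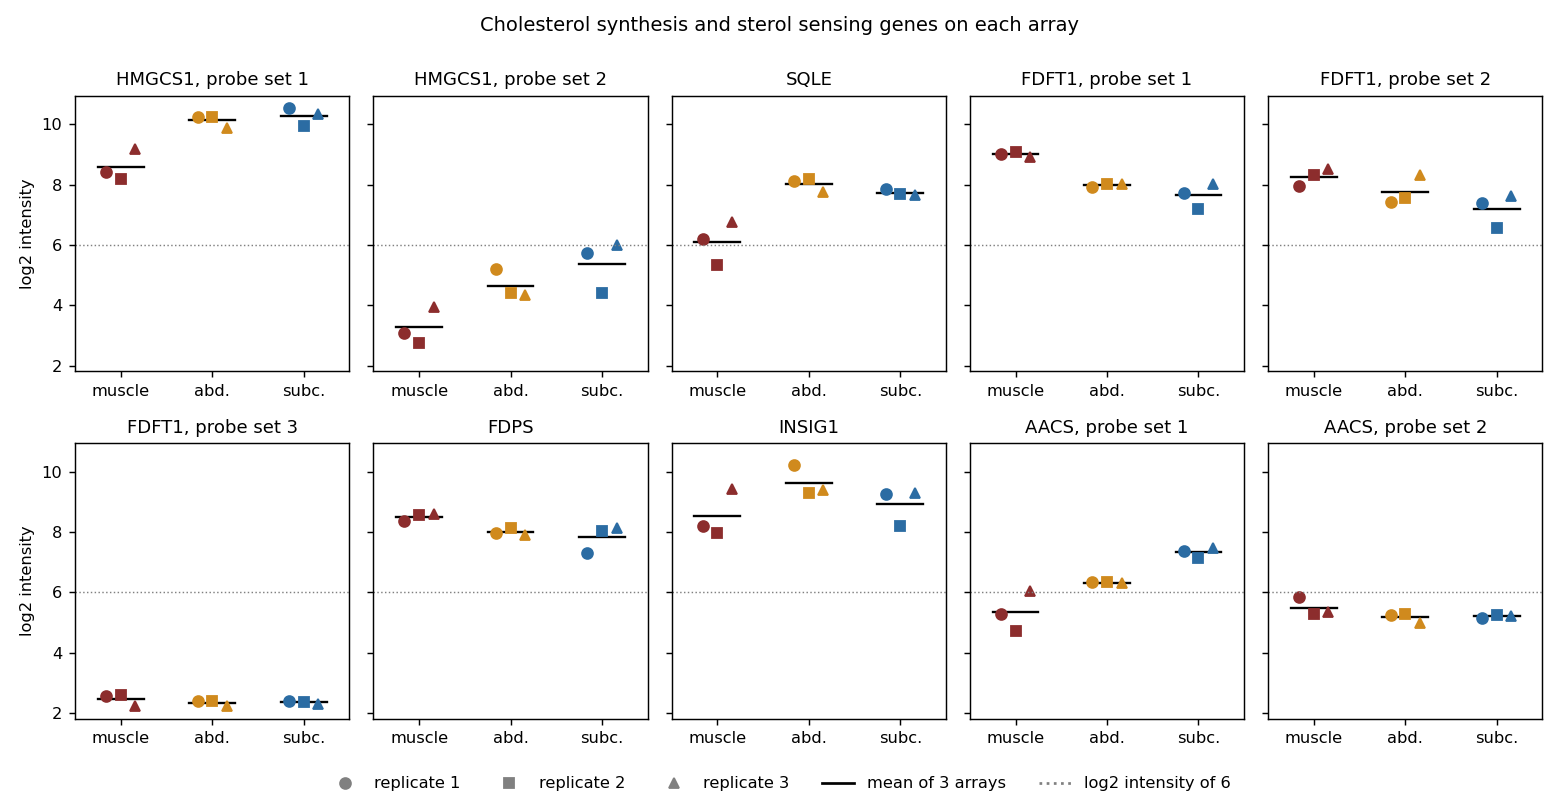
Log2 intensity of each of the 10 member probe sets on the 9 arrays, by tissue (abd., abdominal fat; subc., subcutaneous fat); symbols mark replicates, black bars the mean of 3 arrays and the dotted line a log2 intensity of 6. HMGCS1, SQLE and the first AACS probe set lie higher in fat than in muscle, the first FDFT1 probe set and FDPS lie lower, and INSIG1 overlaps between fat and muscle.

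HMGCS1 makes hydroxymethylglutaryl-CoA, the substrate of the step that yields mevalonate. Its brighter probe set read 8.43, 8.18 and 9.18 in muscle, 10.24, 10.25 and 9.88 in abdominal fat and 10.52, 9.94 and 10.32 in subcutaneous fat. Every fat array was above every muscle array, and the depots overlapped. Fat was higher by 1.60 ± 0.22 (SE, 3 arrays per tissue; adjusted p = 0.000193), a 3.03-fold difference. The call held with every array left out in turn and under every other setting tried, with differences from 1.39 to 1.89. The dimmer probe set was near background, with means of 3.27 in muscle, 4.64 in abdominal and 5.37 in subcutaneous fat, and differed by 1.74 ± 0.38 (adjusted p = 0.00345) in the same direction.

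FDPS makes farnesyl pyrophosphate, from which the sterol and non-sterol branches divide. Its probe set read 8.37, 8.55 and 8.61 in muscle, 7.97, 8.13 and 7.89 in abdominal fat and 7.29, 8.04 and 8.13 in subcutaneous fat. The muscle arrays lay above the fat arrays by a narrow margin, and subcutaneous replicate 1 stood below the rest. Fat differed from muscle by -0.60 ± 0.18 (adjusted p = 0.0179). Leaving out muscle replicate 2 (-0.58, adjusted p = 0.0559) or 3 (-0.56, adjusted p = 0.0556) ended the call.

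FDFT1, squalene synthase, joins 2 farnesyl pyrophosphates in the first step committed to sterols. Its brightest probe set read 9.03, 9.07 and 8.91 in muscle, 7.93, 8.03 and 8.03 in abdominal fat and 7.72, 7.17 and 8.03 in subcutaneous fat. Muscle was above fat on every array, and subcutaneous replicate 2 was the lowest. The difference was -1.18 ± 0.17 (adjusted p = 0.00022), so that muscle was 2.27-fold higher. It stayed called in every setting tried, between -1.30 and -1.07. The second FDFT1 probe set differed by -0.79 ± 0.26 (adjusted p = 0.030), with abdominal replicate 3 at 8.31 among the muscle arrays, which read 7.96, 8.33 and 8.50. That call ended when muscle replicate 2 (adjusted p = 0.087) or 3 (0.103), or abdominal replicate 1 (0.0599) or 2 (0.0581), was left out, and with array weights (-0.65, adjusted p = 0.0864). The third probe set read 2.23 to 2.59 on the 9 arrays, near background, and shows nothing on FDFT1.

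SQLE, squalene epoxidase, takes squalene to the oxidised form that is then closed into rings, and is among the regulated steps of the pathway. It read 6.19, 5.32 and 6.75 in muscle, 8.12, 8.18 and 7.76 in abdominal fat and 7.84, 7.67 and 7.65 in subcutaneous fat. Fat and muscle arrays were separated by a wide gap, and muscle replicate 2 was below 6. The difference was 1.78 ± 0.26 (adjusted p = 0.000266), or 3.44-fold, and was called in every setting tried, between 1.40 and 2.11. SQLE and FDFT1 catalyse neighbouring steps and differed in opposite directions.

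INSIG1 is the sterol-dependent anchor that retains SCAP and, with sterol, promotes the breakdown of the mevalonate-forming reductase. Its probe set read 8.21, 7.96 and 9.41 in muscle, 10.21, 9.30 and 9.38 in abdominal fat and 9.25, 8.21 and 9.28 in subcutaneous fat. Muscle replicate 3 was above every fat array but abdominal replicate 1, and subcutaneous replicate 2 was as low as muscle replicate 1. The difference of 0.75 ± 0.37 did not pass (adjusted p = 0.113), and its 95% interval ran from -0.07 to 1.56, which leaves room for no difference and for one as large as that of AACS. It passed without muscle replicate 3 (1.19, adjusted p = 0.0152), without subcutaneous replicate 2 (0.92, adjusted p = 0.0488) and with array weights (0.99, adjusted p = 0.037). With samples blocked by opening title number it passed as well (0.97, adjusted p = 0.00586). Without muscle replicate 2 it was 0.46 (adjusted p = 0.386).

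AACS, acetoacetyl-CoA synthetase, is a cytosolic enzyme that activates the ketone body acetoacetate and so offers carbon to sterol and fatty acid synthesis. Its brighter probe set read 5.29, 4.73 and 6.05 in muscle, 6.34, 6.34 and 6.30 in abdominal fat and 7.36, 7.14 and 7.47 in subcutaneous fat. The 3 tissues did not overlap, with muscle lowest and subcutaneous fat highest. Fat was higher than muscle by 1.46 ± 0.24 (adjusted p = 0.000518), and the muscle mean of 5.36 was near background. The other AACS probe set, near background in each tissue with means of 5.17 to 5.49, differed by -0.31 ± 0.14 (adjusted p = 0.0994). With arrays centred on their medians it was called lower in fat (-0.43, adjusted p = 0.0268), so the 2 AACS probe sets disagreed in direction.

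Several of these readings were identical to all 4 deposited decimals on different arrays. The first FDFT1 probe set had an intensity of 261.2878 on 3 fat arrays, and the brighter AACS probe set had 80.7784 on abdominal replicates 1 and 2. In all, 5 of the 10 member probe sets and 35.3% of the 24016 probe sets had such a repeat. Within 1 tissue it was 3 of 10 and 17.5%. The SD of 0.02 for AACS in abdominal fat is therefore not read as a biological spread. Such repeats also enter the standard errors and p-values given for AACS and FDFT1, and their effect was not tested.

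Markers of several cell types moved with the same comparison. The summed intensity of the measured adipocyte markers (7 of 8) was 2989.8 to 6727 on the muscle arrays and 27194 to 30779 on the fat arrays. Macrophage markers (7 of 8) summed to 1007 to 2471 in muscle and 5386 to 11032 in fat, and endothelial markers (6 of 7) to 628 to 769 and 3125 to 4999.5. Muscle markers (6 of 8) summed to 38232 to 41987 in muscle and 3264 to 6333 in fat. Pericyte and smooth muscle markers (7 of 7) summed to 3259 to 3453 in muscle and 8103 to 15725 in fat. Liver markers (5 of 5) summed to 788 to 853 and 2018 to 2306, but 2 were called higher in fat and 3 were not called. Between the depots the endothelial sums did not overlap, at 4344 to 4999.5 in abdominal and 3125 to 3239 in subcutaneous fat. The adipocyte sums did not overlap either (29731 to 30779 and 27194 to 28352). By limma, 1 endothelial marker was called higher in abdominal fat and no marker of the other lists was called, where 1.496% of all genes were. A sum follows its brightest genes. No marker was at 0 on any array, but some were near background. In muscle these were 2 adipocyte, 3 endothelial, 1 macrophage, 1 pericyte and smooth muscle and 2 liver markers. In each fat depot they were 1 adipocyte, 2 muscle, 2 endothelial and 2 liver markers. In bulk tissue, fewer cells of a type and less RNA per cell cannot be told apart, and the part of these cell types in the members' differences was not tested.

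Each depot was then set against muscle on its own, with the same muscle arrays in both comparisons. In abdominal fat 5 of 10 member probe sets were called, 4 higher and 1 lower, where 46.6% of all probe sets were called (23.5% higher, 23.1% lower). In subcutaneous fat 7 of 10 were called, 4 higher and 3 lower, where 47.0% of all were called (24.6% higher, 22.4% lower). Arrays did not overlap at 6 of 10 member probe sets for abdominal fat, against 54.9% of all, and at 8 of 10 for subcutaneous fat, against 54.3%. HMGCS1 by its brighter probe set was higher by 1.53 ± 0.26 in abdominal fat (adjusted p = 0.000813) and by 1.67 ± 0.26 in subcutaneous fat (adjusted p = 0.000468). SQLE was higher by 1.93 ± 0.30 (adjusted p = 0.000505) and 1.63 ± 0.30 (adjusted p = 0.0014).

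For AACS the differences from muscle were 0.96 ± 0.27 in abdominal fat (adjusted p = 0.0154) and 1.97 ± 0.27 in subcutaneous fat (adjusted p = 0.000243). FDFT1 by its brightest probe set differed by -1.01 ± 0.19 (adjusted p = 0.00188) and -1.36 ± 0.19 (adjusted p = 0.000286). These 4 genes were called in both depots. FDPS was called in subcutaneous fat (-0.69 ± 0.21, adjusted p = 0.021) and not in abdominal fat (-0.52 ± 0.21, adjusted p = 0.066), and the second FDFT1 probe set likewise (-1.07, adjusted p = 0.0161, and -0.50, adjusted p = 0.205). The abdominal FDPS difference was called without subcutaneous replicate 1 (adjusted p = 0.0102), an array that enters that comparison through the shared spread alone. It was also called with centred arrays (-0.63, adjusted p = 0.0301), after quantile normalization (-0.65, adjusted p = 0.0298) and in a fit of the abdominal and muscle arrays alone (adjusted p = 0.0177), so the depots are not shown to differ for FDPS. In subcutaneous fat FDPS lost its call without muscle replicate 2 (adjusted p = 0.0544) or 3 (0.0525), and the second FDFT1 probe set without subcutaneous replicate 2 (-0.76, adjusted p = 0.0534). The dimmer HMGCS1 probe set was called in abdominal fat (1.37, adjusted p = 0.027), and lost that call without muscle replicate 1 (0.0809) or 2 (0.0963) or abdominal replicate 1 (0.0971). INSIG1 differed by 1.10 ± 0.42 in abdominal fat (adjusted p = 0.0553) and 0.39 ± 0.42 in subcutaneous fat (adjusted p = 0.48). The abdominal INSIG1 difference passed without muscle replicate 3 (1.55, adjusted p = 0.00836), without subcutaneous replicate 2 (adjusted p = 0.040), with array weights (1.38, adjusted p = 0.0136) and among probe sets above 6 on at least 3 arrays (adjusted p = 0.0418). With samples blocked by opening title number it passed as well (1.54, adjusted p = 0.00272).

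**Figure D2:**
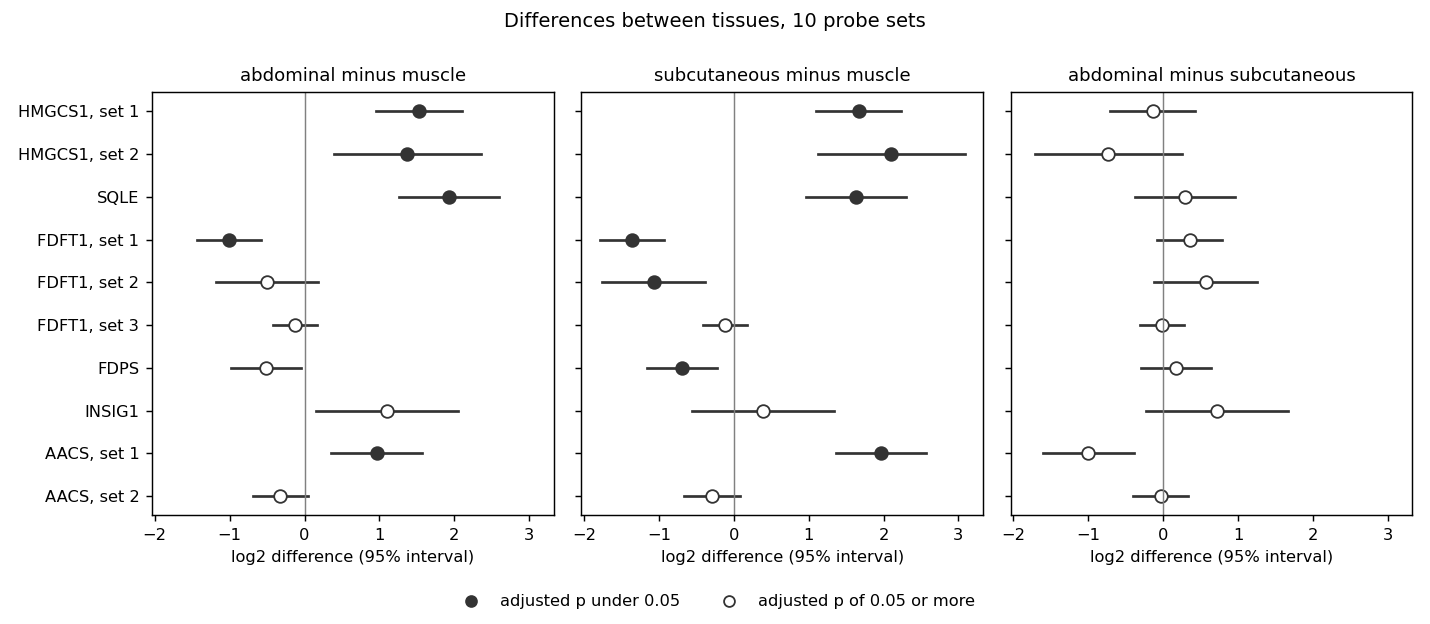
Log2 difference of each member probe set in 3 comparisons between tissues, with its 95% interval from the limma fit; filled points have an adjusted p under 0.05. HMGCS1, SQLE and the first AACS probe set lie right of 0 against muscle in both depots, the first FDFT1 probe set lies left of 0, and no point is filled between the depots.

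The last question was how the depots differed. No member probe set was called between abdominal and subcutaneous fat by limma, where 1.31% of all probe sets were (0.641% higher and 0.666% lower in abdominal fat). At an unadjusted p under 0.05 there was 1 member probe set of 10, against 14.5% of all. That was the brighter AACS probe set, with levels of 6.32 ± 0.02 (SD, n = 3) in abdominal fat and 7.32 ± 0.17 in subcutaneous fat. The depots did not overlap there or for INSIG1, which makes 2 of 10 member probe sets, against 23.6% of all. For INSIG1 the lowest abdominal array (9.30) was barely above the highest subcutaneous array (9.28). The AACS difference was -1.001 ± 0.27 (adjusted p = 0.114; 95% interval -1.61 to -0.39), lower in abdominal fat. It passed in a fit of the fat arrays alone (adjusted p = 0.0241), when arrays were weighted (0.0166), and once muscle replicate 2 (0.0453) or 3 (0.0281) was left out, while it did not without muscle replicate 1 or any single fat array.

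INSIG1 was at 9.63 ± 0.50 in abdominal and 8.91 ± 0.61 in subcutaneous fat, a difference of 0.72 ± 0.42 (adjusted p = 0.503) with an interval from -0.23 to 1.66. For HMGCS1 the interval was -0.71 to 0.43, for SQLE -0.37 to 0.96, for FDPS -0.29 to 0.64 and for FDFT1 -0.08 to 0.78. Differences between the depots as large as those ends are therefore not excluded by these arrays. By level, HMGCS1 and AACS had the order subcutaneous fat, abdominal fat, muscle. SQLE and INSIG1 had abdominal fat first, and FDFT1 and FDPS had muscle first and subcutaneous fat last. The 2 depots were neighbours in each of these orders and did not pass the test for any gene.

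The spread between arrays of 1 tissue differed between members. In muscle, the highest and lowest arrays were 1.46 apart for INSIG1, 1.42 for SQLE, 1.31 for AACS and 0.999 for HMGCS1, but 0.16 for FDFT1 and 0.24 for FDPS. Muscle replicate 3 was highest for 5 of the 6 genes and replicate 2 lowest for 4, namely HMGCS1, SQLE, INSIG1 and AACS. In abdominal fat these ranges were 0.04 for AACS and 0.36 for HMGCS1, 0.42 for SQLE and 0.91 for INSIG1. In subcutaneous fat the order turned, with ranges of 0.85 for FDFT1 and 0.84 for FDPS against 0.59 for HMGCS1, 0.34 for AACS and 0.18 for SQLE, while INSIG1 had 1.07. There replicate 2 was lowest for 4 of 6 genes, with INSIG1 at 0.71 below the tissue mean. Muscle replicate 2 was also low in adipocyte markers.

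Among the 7 measured adipocyte markers, 6 were lowest on muscle replicate 2, and ADIPOQ lay 0.78 below its muscle mean there. The summed adipocyte marker intensity was 6727, 2989.8 and 5805 on muscle replicates 1, 2 and 3. Macrophage markers were also lowest on replicate 2 for 6 of 7, with sums of 2471, 1007 and 1417. The members that varied little in muscle, FDFT1 and FDPS, were those lower in fat. Whether fat within the muscle samples has a part in this spread was not tested.

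**Figure D3:**
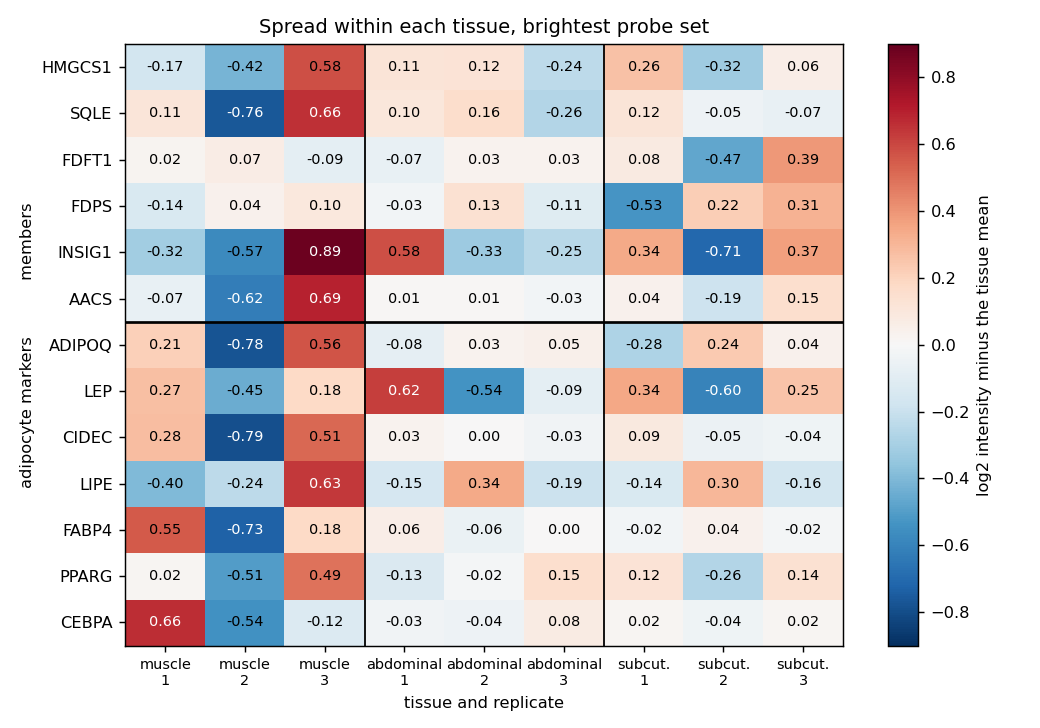
Log2 intensity of the 6 measured member genes (upper rows) and 7 adipocyte markers (lower rows) on each array minus the mean of that tissue's 3 arrays, by the brightest probe set; red is above and blue below the tissue mean. Muscle replicate 2 is blue for HMGCS1, SQLE, INSIG1, AACS and the adipocyte markers, while FDFT1 and FDPS vary by at most 0.14 from their muscle means.

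The other enzymes of the pathway came from a list of 16 genes, of which 11 had a probe set with 1 symbol. By the brightest probe set 7 were higher in fat, 3 lower, and 1 did not pass, with a median difference of 0.87 against -0.02 over all 9155 genes, 61.4% of which were called. NSDHL, a sterol C4 decarboxylase, was at 6.57 ± 0.04 (SD, n = 3) in muscle, 8.43 ± 0.03 in abdominal and 8.34 ± 0.08 in subcutaneous fat (fat higher by 1.81, adjusted p = 3.63e-07). MSMO1, the sterol C4 oxidase, was 1.24 higher (adjusted p = 1.53e-05). TM7SF2, a sterol C14 reductase, was lower in fat by -1.73 (adjusted p = 0.000111), with muscle at 7.48 and both depots under 6. Between the depots no gene of this list passed.

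Placed in the order of the pathway, the directions of the measured genes came in blocks. This arrangement, and the genes named in it outside the naming rule, were chosen after the values were seen and have no test. The mevalonate-forming reductase, between HMGCS1 and MVK, and IDI1 have no value in this order, so where a block ends is uncertain. The thiolase ACAT2, which supplies acetoacetyl-CoA, was 0.74 higher in fat, as was HMGCS1. Of the 5 measured genes from mevalonate to squalene, 4 were lower in fat: the kinase MVK (-0.60), the decarboxylase MVD (-0.84), FDPS and FDFT1. PMVK, the next kinase, was at 6.19 in muscle and 6.14 in fat (-0.05, adjusted p = 0.706). Of the 8 measured genes from SQLE onwards, 7 were higher, among them CYP51A1 (1.14), EBP (0.87) and DHCR7 (1.22), and TM7SF2 was lower. DHCR7 was near background in muscle (5.84).

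These counts by block were the same with arrays centred on their medians and after quantile normalization. Without muscle replicate 2 or 3, and at an adjusted p under 0.01, the middle block had 3 of 5 lower, since FDPS lost its call. LSS, the cyclase after SQLE, differed by 1.18 at its brightest probe set, with muscle near background, and by -0.79 at its least bright (adjusted p = 0.003), which was near background in each tissue. The LSS probe set between them, also near background, differed by -0.06 (adjusted p = 0.74), so the direction of LSS is uncertain. LSS is nonetheless counted among the higher genes from SQLE onwards. The other MVK probe sets, both near background, differed by -0.15 and -0.21 and were not called.

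**Figure D4:**
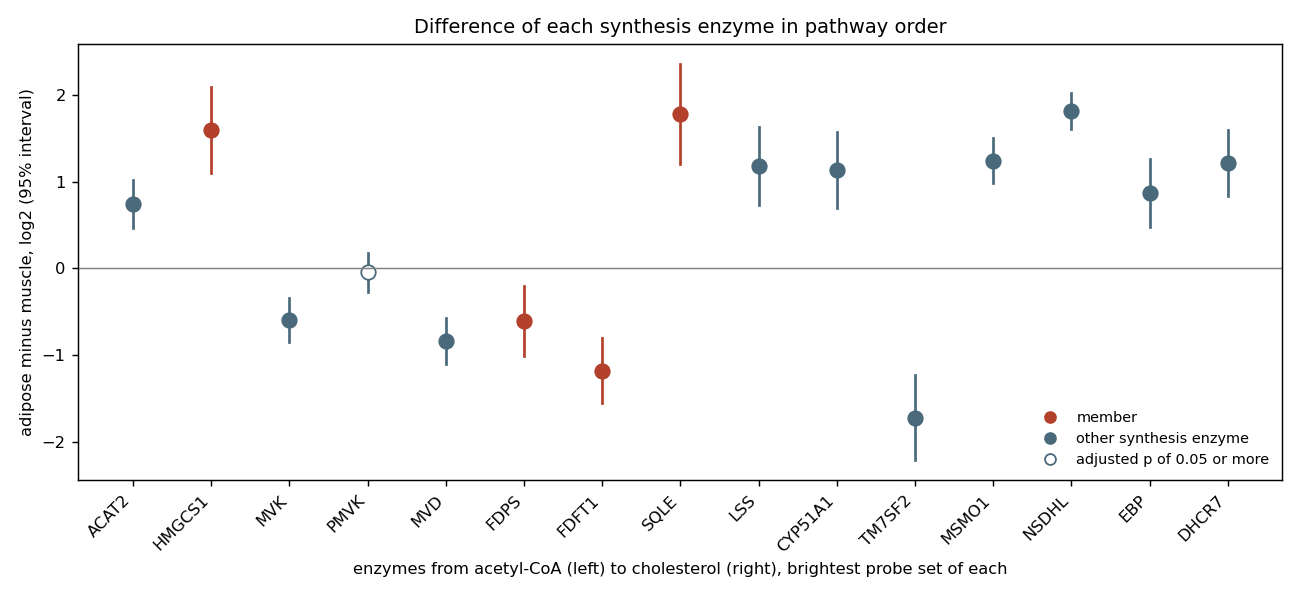
Log2 difference of fat (mean of both depots) minus muscle for 15 enzymes, ordered along the pathway from acetyl-CoA on the left to cholesterol on the right, by the brightest probe set of each with its 95% interval. The mevalonate-forming reductase and IDI1 are not among them. Points from MVK to FDFT1 lie at or below 0, between -0.05 and -1.18, and those from SQLE on lie above 0 except TM7SF2 at -1.73.

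Genes of sterol sensing and SREBP processing, 13 measured of 16, had 7 higher, 1 lower and 5 not called in fat (median 0.34), a share near the 61.4% of all genes called. MBTPS1, the protease that first cuts SREBP, was 1.21 higher (8.66 ± 0.25 in muscle, 9.80 ± 0.14 and 9.95 ± 0.11 in abdominal and subcutaneous fat; adjusted p = 4.08e-05). The ubiquitin ligase SYVN1 was 0.90 higher (adjusted p = 0.00048) and PAQR3, a Golgi anchor of the SCAP complex, 0.81 higher (adjusted p = 0.00108). PAQR3 was near background in muscle (5.89), and its other probe set, near background in each tissue, was not called (0.36, adjusted p = 0.0553). Of the factors themselves, named outside the rule, SREBF2, whose product chiefly drives cholesterol genes, was 0.70 higher by its brighter probe set (adjusted p = 0.000529), and its other probe set was near background. SREBF1, the lipogenic factor, differed by 0.23 (adjusted p = 0.484), and INSIG2, the paralogue of INSIG1, by -0.03 (adjusted p = 0.903), by their brightest probe sets. The dimmest SREBF1 probe set, near background in each tissue, was lower in fat (-0.85, adjusted p = 0.000206), and the others were not called. The other INSIG2 probe sets differed by 0.31 (adjusted p = 0.0661) and -0.41 (adjusted p = 0.0683). No gene of this list passed between the depots.

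Uptake and transport genes had 7 of 9 measured members higher in fat and 2 lower, of 16 listed, with a median of 1.44, where 61.4% of all genes were called in either direction. LIPA, the lysosomal lipase that frees cholesterol from its esters, was 2.88 higher (adjusted p = 9.78e-06), and the lysosomal exporters NPC1 and NPC2 were 1.93 and 1.77 higher. The muscle mean of NPC1 was just under 6 (5.9995). Storage, efflux and liver X receptor genes had 6 of 8 measured members higher and none lower, of 11 listed (median 0.89), against the same 61.4%. APOE, the lipid carrier of secreted particles, was 3.81 higher (adjusted p = 1.32e-07), the sterol hydroxylase CYP27A1 2.62 higher and the cholesterol acyltransferase LCAT 2.07 higher. Macrophages also express LIPA, APOE and CYP27A1. The macrophage sums given above moved with the same comparison, as did the adipocyte, endothelial and pericyte sums. The part of any cell type in these differences was not tested.

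Cell type markers apart, CYP27A1 was the single listed gene called between the depots, where 1.496% of all genes were called in either direction. It was at 10.22 ± 0.33 in abdominal and 11.24 ± 0.22 in subcutaneous fat (-1.02 ± 0.20, adjusted p = 0.0448). Whether 1 call in these lists is more than that share would give was not tested. The call was lost without any 1 of the 6 fat arrays (adjusted p from 0.0624 to 0.137), without muscle replicate 1 (0.0624) and in a fit of the fat arrays alone (0.0583). It was also lost with samples blocked by opening title number (0.152).

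Non-sterol branches that start from FDPS or its neighbours had 1 higher, 3 lower and 6 not called of 10 measured and 11 listed (median -0.09), fewer than the 61.4% called over all genes. NUS1, a subunit of the dolichol-forming transferase, was 1.41 higher (adjusted p = 2.97e-05). PDSS1, which builds the ubiquinone side chain, was lower by -1.23 (adjusted p = 0.000269), and PGGT1B, a geranylgeranyl transferase subunit, by -0.83 (adjusted p = 0.000148). PDSS1 was near background in abdominal fat (5.61). Genes that make or use acetoacetate and cytosolic acetyl-CoA, beside AACS, had 2 higher and 3 lower of 6 measured and 9 listed (median -0.48), beside 61.4% of all genes called. BDH1, the mitochondrial dehydrogenase of ketone bodies, was at 10.58 ± 0.56 in muscle and 6.04 ± 0.38 and 5.78 ± 0.38 in abdominal and subcutaneous fat (-4.67, adjusted p = 6.47e-07). ACSS2 and ACLY, which supply acetyl-CoA in the cytosol, were 2.61 and 2.35 higher in fat (adjusted p = 9.17e-05 and 3.36e-06). AACS, of the same cytosolic supply, was higher in fat by its brighter probe set, as given above.

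For each member the 2 genes with the nearest profile were taken, by the root mean square difference of log2 values over the 9 arrays after each gene's own mean was removed, among 8948 other genes. Nearest to HMGCS1 were TGOLN2 (0.11) and TMEM127 (0.14), to SQLE SPTBN1 (0.16) and CTNNA1 (0.16), and to FDFT1 CHGA (0.18) and COMMD1 (0.19). FDPS had PDCD1 and CRHR2 (both 0.14) and AACS had MMP2 (0.19) and PHETA2 (0.24). INSIG1 had more distant neighbours, NFIB (0.29) and lipoprotein lipase, LPL (0.31). No member was among the 2 nearest genes of another member.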

How the data were processed

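Per the labels, biotin-labelled cRNA was hybridised to 1-colour Affymetrix arrays, and the submitters' processing notes name RMA, of a version not given in the sources used here. Linear intensities were deposited, 1 per probe set and array, and their log2 was taken with no further normalization or filter. The 112 control probe sets were left out. Of 24016 tested, 13292 had 1 symbol through the array annotation and the RefSeq gene table, 86 several and 10638 none. No genome coordinates or sequences were used. A means model of 3 tissues was fitted to 9 arrays with limma 3.58.1 (lmFit, eBayes) in R 4.3.3, with Benjamini-Hochberg adjustment over all probe sets. Tests were two-sided. A gene outside the members stands by its brightest probe set. The naming rule took up to 3 called genes per list by size for fat against muscle and up to 2 between the depots. Members and lists were chosen with earlier results of these data known. The fit was tested on simulated data. Alternatives covered scaling, filter, prior, weights, arrays fitted, threshold, block and each array left out.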

Additional observations from a re-analysis of the deposited data

Results flagged for a closer look

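CYP27A1, the sterol hydroxylase, differed between the depots in how far it lay above muscle. It was 2.11 higher than muscle in abdominal fat and 3.13 higher in subcutaneous fat, and the test of that difference gave -1.02 ± 0.20 (adjusted p = 0.0448 by limma, 3 arrays per tissue). All 3 subcutaneous arrays lay above the abdominal arrays. Since both depots were set against the same muscle arrays, this is the depot difference itself. Over all genes, 1.496% were called between the depots. The call was lost without any 1 of the 6 fat arrays (adjusted p from 0.0624 to 0.137), without muscle replicate 1 (0.0624), in a fit of the fat arrays alone (0.0583) and with the replicate block (0.152).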

How the results depend on the processing

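For fat against muscle, 7 member probe sets were called as reported, 5 to 8 with 1 array left out, 5 at an adjusted p under 0.01, and 6 to 8 under the other alternatives. For abdominal fat against muscle the 5 calls became 3 at an adjusted p under 0.01 and 4 to 7 otherwise, and for subcutaneous fat 5 to 8. Between the depots the count of 0 became 1 (AACS) with array weights and 1 in a fit of the fat arrays alone, and 0 to 1 with 1 array left out. No member difference from muscle changed sign. Between the depots, 4 differences that were not called did. The third FDFT1 probe set (-0.01) became 0.000318 with centred arrays, 0.0154 after quantile normalization, 0.0035 with array weights and -0.0395 to 0.0496 with 1 array left out. With 1 array left out FDPS ran from -0.0929 to 0.329 and the second AACS probe set from -0.0863 to 0.0617. The cause was not tested.

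With a replicate block given by the number that opens each title, the first HMGCS1 and second AACS probe sets turned to 0.14 and 0.0329 between the depots. That block gave 8, 6, 7 and 0 member calls for fat, abdominal fat and subcutaneous fat against muscle and for the depots, and INSIG1 passed for fat (0.97, adjusted p = 0.00586) and abdominal fat (1.54, adjusted p = 0.00272). The condition set for a pairing, a correlation of deviations over 0.1 for every same-numbered pair, was not met. The correlation was under 0.1 for 2 of 7 same-numbered pairs (0.0431 and 0.0905, the others up to 0.362). Of 20 differently numbered pairs 19 were under 0.1, in a range from -0.324 to 0.170. Same-numbered samples may share an animal, which these values do not settle, and the main fit has no block. With the block CYP27A1 lost its depot call (adjusted p = 0.152). Over all probe sets the 314 depot calls became 118 with the block, 1034 with array weights, 36 at an adjusted p under 0.01 and 57 to 491 with 1 array left out. Signals near background limit the third FDFT1, second HMGCS1 and second AACS probe sets.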
